A study of Mus musculus with 10 samples.

Results

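Complement is a set of plasma and tissue proteins that coat targets for removal by phagocytes, and the 9 complement genes described here encode its starting proteins and the receptors through which phagocytes read it. They are C1qa, C1qb, C1qc, C3, C4b, C3ar1, C5ar1, Itgam and Itgb2, taken by name, 9 of the 52181 entries of the deposited table and all among the 16620 entries with at least 1 unique molecular identifier (UMI, a tag that counts an RNA molecule once). They were measured by droplet single-cell RNA sequencing in 1168 cells that the labels call microglia or macrophages from the retina and optic nerve of mice. Animals were wildtype, of the strain the labels write 129S1/SvlmJ, of both sexes and 10 weeks old. Injured tissue came from mice whose optic nerve had been crushed at 8 weeks, 2 weeks before collection, and uninjured tissue from mice with no treatment. The 10 samples were 4 injured retinas, 2 uninjured retinas, 2 injured and 2 uninjured optic nerves, and the table holds the injured retinas as 2 pools of 2 samples each. This leaves 8 libraries, 2 per group, as the replicates. The labels do not say how many animals a sample holds, and p-values measure only the spread between these libraries.

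C1q is assembled from A, B and C chains and starts the classical pathway when it binds antibody or a damaged surface. Bound C1q leads to cleavage of C4 and then of C3, whose fragments stay on the target or diffuse away as signals. C3ar1 and C5ar1 are receptors for the soluble fragments C3a and C5a, and Itgam pairs with Itgb2 to form CR3, an integrin that takes up targets coated with C3 fragments. In the nervous system microglia are the main source of C1q, and C1q and C3 take part in removal of synapses by microglia through CR3.

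Uninjured retina held 31 cells and 142787 UMIs in library 5 and 12 cells and 56838 UMIs in library 6, and the other libraries held 28 to 682 cells and 84121 to 5234954 UMIs. The median cell held 1078 UMIs in the shallowest library, injured nerve 1, and 12989 in the deepest, injured retina pool 1 and 2. Levels are therefore given as CPM, the UMIs of a gene summed over the cells of a library per 1000000 UMIs of those cells, and their intervals cover counting error only. Uninjured retina held 0 UMIs in the last 24183 table entries, where all other groups held some, so that annotation or merging differed for this group. All 9 complement genes lie in the first 27998 entries, which all groups share. Whether each gene was countable alike in every group was not tested.

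The C1q genes and the receptor genes are shown by the stretch before their start that RefSeq gives for build GRCm38.p6, because the C1q chains moved together and C5ar1 and Itgam were the members that fell in injured retina. Of the 9 members 6 were in the promoter table. The stretch is the 250 bases before the RefSeq start, written 5′ to 3′ on the strand of the gene. RefSeq and GENCODE M21 place some starts differently, so 151 of the 250 bases of C1qc and 202 of those of C5ar1 lie inside the gene as GENCODE draws it, 151 and 28 of them in exons. Each line therefore holds the longest run of the stretch outside GENCODE exons of its gene, which is the whole stretch for C1qb and Itgam, the 99 bases farthest from the start for C1qc and the 174 nearest to it for C5ar1. Capitals mark AGGAAGT, a string that contains the GGAA core of ETS factors such as the myeloid regulator PU.1, where it was found on either strand (a match on the opposite strand reads ACTTCCT). C1qb is at chr4:136886201-136886450 on the minus strand, C1qc at chr4:136893066-136893164 on the minus strand, C5ar1 at chr7:16259339-16259512 on the minus strand and Itgam at chr7:128062390-128062639 on the plus strand.
C1qb promoter: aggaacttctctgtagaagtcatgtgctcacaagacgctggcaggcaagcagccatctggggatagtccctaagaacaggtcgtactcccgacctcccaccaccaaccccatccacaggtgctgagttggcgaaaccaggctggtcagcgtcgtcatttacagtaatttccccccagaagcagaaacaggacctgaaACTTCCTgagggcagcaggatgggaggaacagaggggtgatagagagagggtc
C1qc promoter: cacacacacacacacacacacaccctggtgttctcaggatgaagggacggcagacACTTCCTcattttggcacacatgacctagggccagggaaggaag
C5ar1 promoter: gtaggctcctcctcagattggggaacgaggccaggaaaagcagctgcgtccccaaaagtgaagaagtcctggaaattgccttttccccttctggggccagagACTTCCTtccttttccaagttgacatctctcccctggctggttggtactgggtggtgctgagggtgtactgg
Itgam promoter: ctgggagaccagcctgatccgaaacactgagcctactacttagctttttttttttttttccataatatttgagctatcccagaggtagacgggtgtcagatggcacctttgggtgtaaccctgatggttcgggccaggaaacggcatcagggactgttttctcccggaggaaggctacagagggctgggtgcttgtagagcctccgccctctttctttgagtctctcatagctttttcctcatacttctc
The string stood once before C1qb, 53 to 47 bases ahead of the start, and once before C1qc, 195 to 189 bases ahead. It stood at 2 places before C5ar1, 72 to 66 and 190 to 184 bases ahead, of which the first lies in the gene outside exons by GENCODE and the other, not shown, in an exon. The Itgam stretch had no match, nor had those of C3 and C3ar1. It occurred in 7.69% of all 32851 promoters of this length, and it was chosen for display after 9 strings had been searched. A match describes the letters and does not show binding.

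C1q RNA was abundant in every library, and its chains kept nearly the same proportions throughout. C1qa (ENSMUSG00000036887) lies on chromosome 4 at 136895917 to 136898803, C1qb (ENSMUSG00000036905) at 136880129 to 136886187 and C1qc (ENSMUSG00000036896) at 136889804 to 136893065 in GRCm38. All are on the minus strand within 18.7 kb, and none overlaps another annotated gene. The table held 58007 C1qa, 55728 C1qb and 39991 C1qc UMIs, and together they made up 0.951% to 2.22% of all UMIs of a library. Of the C1q UMIs of a library, C1qa took 36.7% to 41.5%, C1qb 34.0% to 38.0% and C1qc 23.2% to 28.8%. C1qa and C1qb stood within a root mean square difference of 0.0661 of each other in centred log2 CPM over the 8 libraries, C1qb and C1qc within 0.136 and C1qa and C1qc within 0.144. These are descriptions of 8 points that share cells and libraries.

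C1qa stood at 8194 and 8128 CPM in uninjured retina libraries 5 and 6 and at 5848 and 5681 CPM in injured retina pools 1 and 2, and 3 and 4. In uninjured optic nerve libraries 2 and 4 it stood at 5431 and 3652 CPM, and in injured libraries 1 and 3 at 6064 and 8105 CPM. Both injured retina pools thus lay below both uninjured retina libraries, and both injured nerve libraries above both uninjured ones. C1qb had 7487 and 7636 CPM in uninjured against 5328 and 4835 CPM in injured retina, and 5037 and 3234 CPM in uninjured against 5991 and 7921 CPM in injured nerve. C1qc had 5400 and 6387 CPM against 3660 and 3171 CPM in retina, and 3637 and 2626 CPM against 3707 and 5765 CPM in nerve. For C1qc the counting intervals of uninjured nerve library 2 (3440 to 3842 CPM) and injured library 1 (3498 to 3925 CPM) overlapped. The order of the groups was the same for the 3 chains, and the lowest library was uninjured nerve 4 each time.

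**Figure D1:**
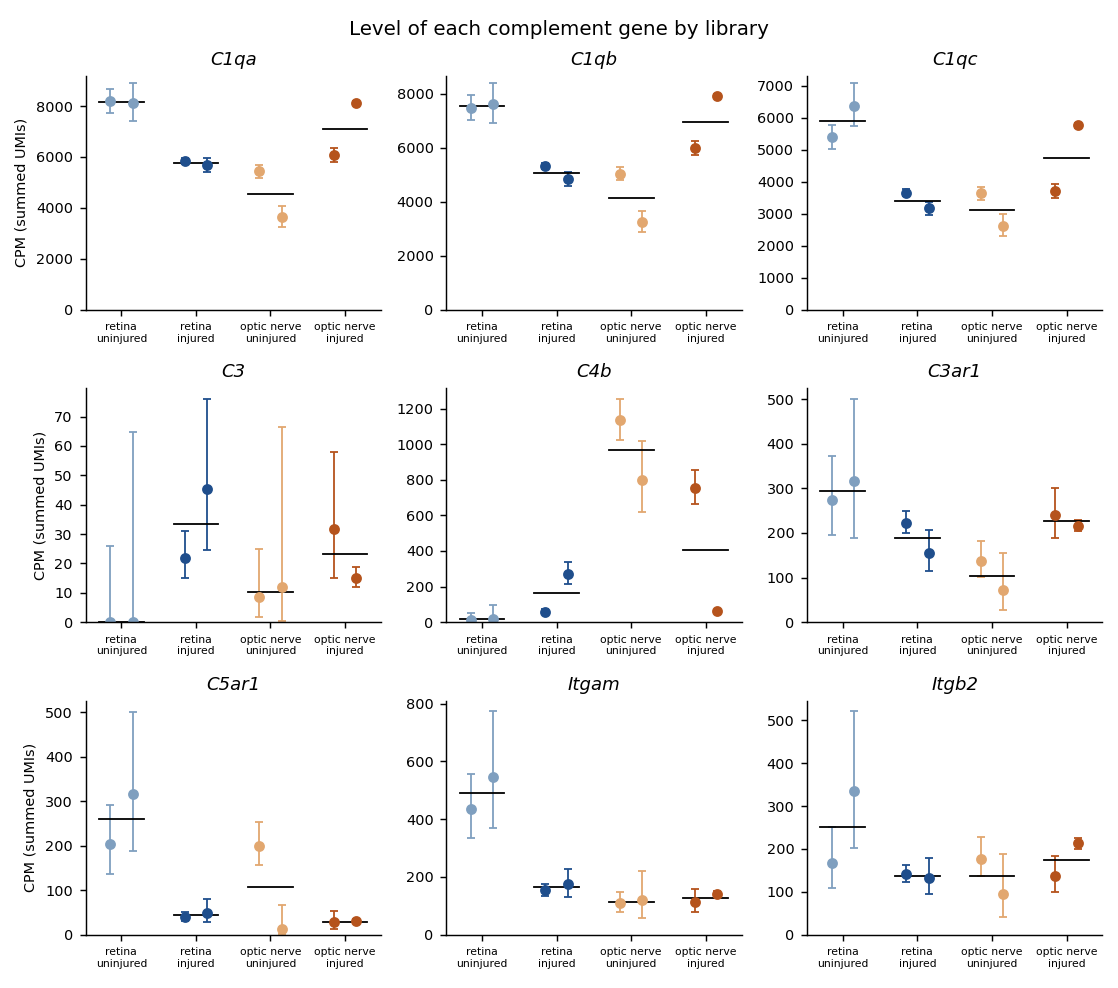
CPM of each member (vertical axes start at 0 and differ between panels) in the 2 libraries of each group, in the order retina 5 and 6, retina pools 1 and 2, and 3 and 4, nerve 2 and 4, and nerve 1 and 3. Points are libraries with exact Poisson 95% intervals and black lines are group means, and in uninjured retina C5ar1 at 203 and 317 CPM and Itgam at 434 and 545 CPM stand above every injured retina pool.

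None of these C1q differences passed the test. In retina the log2 changes after crush were -0.48 ± 0.28 (standard error) for C1qa, -0.55 ± 0.28 for C1qb and -0.76 ± 0.28 for C1qc, with edgeR adjusted p-values of 0.245, 0.182 and 0.0728. In optic nerve they were 0.86 ± 0.38, 0.98 ± 0.39 and 0.79 ± 0.38, with limma adjusted p-values of 0.556, 0.513 and 0.572. The difference between the 2 responses was 1.29 ± 0.54 for C1qa, 1.48 ± 0.54 for C1qb and 1.503 ± 0.53 for C1qc on the log2 scale, and limma gave adjusted p-values of 0.277, 0.231 and 0.215. Without uninjured retina library 6 the retina changes passed in edgeR, at -0.57 for C1qa (adjusted p = 0.0450), -0.62 for C1qb (adjusted p = 0.0288) and -0.72 for C1qc (adjusted p = 0.0130). That library had 12 cells. DESeq2 also called C1qc in retina (-0.76, adjusted p = 0.0306). Between uninjured tissues the differences (nerve minus retina) were -0.95 ± 0.38, -0.98 ± 0.39 and -1.001 ± 0.38, with limma adjusted p-values of 0.166, 0.158 and 0.143.

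The cells were grouped without the complement genes, so that C1q could be compared between groups of cells that it had not helped to define. Markers of microglia named 70 cells microglia-like, those of border macrophages, which line vessels and meninges, named 85, and a list of genes of activated phagocytes such as Spp1 and Gpnmb, which also holds the complement receptor gene Itgax, named 624 activated phagocyte-like. Cells of other kinds were 83 oligodendrocyte-like, 47 T-like and 9 endothelial-like, and 118 cells in cluster 1 and 132 in cluster 2 matched no list. Cluster 1 was led by heat shock genes, among them Hsp90aa1, Hspa1a, Hspa1b, Hsph1, Bag3 and Dnajb1, and the microglia-like cluster by the immediate early and chemokine genes Jun, Egr1, Zfp36, Ccl3 and Ccl4 beside P2ry12 and Tmem119. These clusters held most myeloid cells of injured and of uninjured retina, respectively, and the part of these genes in any retina change was not tested. Cluster 1 came from injured retina except 1 cell, the T-like cells were 22 cells of injured pool 1 and 2, 24 of pool 3 and 4 and 1 of injured nerve library 3, and all oligodendrocyte-like cells came from optic nerve. Class and group therefore overlap only in part, and a class may be a library rather than a cell type.

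Over the pooled cells of a class, C1q RNA of the 3 chains together stood at 22576 CPM in activated phagocyte-like cells, 21502 CPM in cluster 2, 19123 CPM in microglia-like cells, 16332 CPM in cluster 1 and 15615 CPM in border macrophage-like cells. Every myeloid class thus carried it, and their order depended on the library. Within uninjured nerve library 2 it was 18692 CPM in border macrophage-like, 13782 CPM in microglia-like and 9503 CPM in activated phagocyte-like cells. Microglia-like cells had 20734 and 22151 CPM in uninjured retina against 13782 and 14738 CPM in uninjured nerve. T-like cells held 2 C1q UMIs in 47 cells (12.4 CPM), and 45 of the 47 had none, at a median depth of 2422 UMIs. Oligodendrocyte-like cells stood between, at 2977 CPM, with no C1q UMI in 40 of 83 cells at a median depth of 1638 UMIs. The chains stood in the same proportions there, 36.2% C1qa, 35.3% C1qb and 28.5% C1qc, as in all cells, 37.7%, 36.3% and 26.01%. Endothelial-like cells had 64 C1q UMIs (596 CPM) and none in 6 of 9 cells. Whether free RNA or mixed droplets added to the C1q of these cells was not tested.

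**Figure D2:**
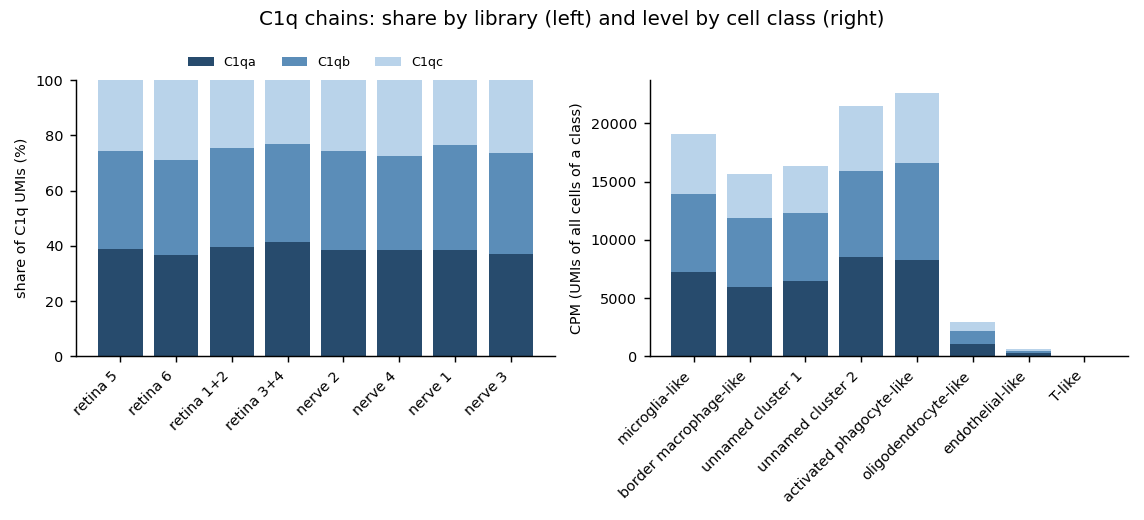
Left, the share of C1q UMIs (%) from each chain by library, with C1qa between 36.7% and 41.5%. Right, stacked CPM of the chains over all cells of a class, from 22576 CPM in activated phagocyte-like cells to 12.4 CPM in T-like cells.

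All cells of uninjured retina had a C1qa UMI, 31 of 31 in library 5 (Clopper-Pearson 95% interval 88.8% to 100%) and 12 of 12 in library 6 (73.5% to 100%). In injured retina 78.0% and 59.6% of cells had one, in uninjured nerve 69.9% and 71.4%, and in injured nerve 91.1% and 90.5%. After thinning every cell to 1000 UMIs (297 shallower cells were dropped), the shares were 99.7% and 99.7%, 77.7% and 58.5%, 70.2% and 61.8%, and 87.2% and 90.0%. Of the 24 cells without any C1q UMI in pool 1 and 2, 22 were T-like, and so were all 23 in pool 3 and 4. Among the 1029 cells left without the T-, oligodendrocyte- and endothelial-like classes, 88.1% had all 3 chains and 2.24% had none.

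Cells of other classes moved with the C1q values. The 9 T cell markers in the table summed to 248 and 639 CPM in the injured retina pools, to 0 in both uninjured retina libraries with all 9 at 0, and to between 9.46 and 28.8 CPM in optic nerve. The 12 oligodendrocyte markers summed to 12328 and 8832 CPM in uninjured and 6575 and 1261 CPM in injured nerve, and to between 70.0 and 90.4 CPM in retina, where 3 or 4 of the 12 had a UMI and Mog, Mobp, Cldn11 and Apod were at 0. The 14 endothelial markers were all present in nerve library 4 at 4869 CPM, the highest sum. The 8 activated phagocyte markers summed to 22024 and 16004 CPM in uninjured and 64634 and 118480 CPM in injured nerve. Gpnmb was at 0 in both uninjured nerve libraries, and Cst7 and Itgax were at 0 in library 4. The Muller glia list, which shares only Apoe with these markers, summed to 22236 and 17019 CPM in uninjured and 62148 and 98437 CPM in injured nerve. The part of Apoe in these sums was not tested. In uninjured retina the phagocyte markers summed to 22334 and 7108 CPM, and in injured retina to 25004 and 16519 CPM. Activated phagocyte-like cells went from 15.5% and 28.6% of cells in uninjured nerve to 67.1% and 73.5% in injured nerve. Their part in the nerve values of C1q was not tested. Without the T-, oligodendrocyte- and endothelial-like classes C1qa stood at 8264 and 8128 CPM in uninjured and 6356 and 6695 CPM in injured retina. In nerve it stood at 6456 and 6144 CPM in uninjured and 6737 and 8326 CPM in injured libraries. The C1qa groups still did not overlap in either tissue, and the distance between them was smaller. C1qb did not overlap either, at 5791 and 5701 CPM in injured against 7613 and 7636 CPM in uninjured retina and 6645 and 8137 CPM in injured against 6000.5 and 5441.5 CPM in uninjured nerve. C1qc overlapped in nerve, at 4278 and 4417.5 CPM in uninjured and 4099.7 and 5923 CPM in injured libraries.

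C4b RNA, which encodes the component that C1 cleaves to continue the classical pathway, was concentrated in a few kinds of cells. C4b (ENSMUSG00000073418) is a minus-strand gene on chromosome 17 from 34728380 to 34743882 and overlaps no other gene. Its near-identical neighbour C4a had an entry with 0 UMIs, outside the entries that all groups share. The split of reads between the 2 genes is therefore uncertain and may differ for uninjured retina. Of 1187 C4b UMIs, 43.2% were in the 85 border macrophage-like cells (1125 CPM) and 32.8% in the 83 oligodendrocyte-like cells (2129 CPM). The 9 endothelial-like cells had 27 UMIs (251 CPM) in 5 cells, and cluster 1 of injured retina had 106 CPM. Microglia-like cells had 15.6 CPM from 4 UMIs, activated phagocyte-like cells 17.5 CPM and cluster 2 16.5 CPM, and the T-like class had 1 UMI.

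By library C4b varied widely. Uninjured retina had 14.0 and 17.6 CPM from 2 UMIs and 1 UMI, and injured retina had 57.3 and 271 CPM. Uninjured nerve had 1134 and 800 CPM, and injured nerve had 754 CPM in library 1 and 60.7 CPM in library 3. Both uninjured nerve libraries thus exceeded both injured ones, and both injured retina pools exceeded both uninjured libraries. The counting intervals of uninjured nerve library 4 (620 to 1015.5 CPM) and injured library 1 (661 to 856 CPM) overlapped. So did those of uninjured retina library 5 (1.70 to 50.6 CPM) and injured pool 1 and 2 (45.5 to 71.2 CPM). Without T-, oligodendrocyte- and endothelial-like cells the nerve groups overlapped, at 1257 and 422 CPM in uninjured and 489 and 17.2 CPM in injured libraries. Leaving out the 1 border macrophage-like cell of uninjured library 4 as well took its 422 CPM to 24.3 CPM. In uninjured nerve library 2 the 43 border macrophage-like cells held 356 of the 397 C4b UMIs (1766 CPM) and 24 oligodendrocyte-like cells 40 (650 CPM), and its 17 microglia-like and 16 activated phagocyte-like cells held 0. In injured nerve, oligodendrocyte-like cells had 2927 CPM in library 1 and 2842 CPM in library 3, against 102 and 15.7 CPM in activated phagocyte-like cells of the same libraries. Border macrophage-like cells of injured nerve library 3 had 55.8 CPM (10 UMIs in 30 cells), below those of uninjured library 2. This compares 2 libraries with no replicate. Injured library 1 had 9 such cells, fewer than the 10 a class needed for its own value. Without T-, oligodendrocyte- and endothelial-like cells, leaving out these 9 as well took its C4b from 489 to 47.4 CPM. They thus held most of that C4b, at a level above 489 CPM, unlike those of injured library 3. No class of fibroblasts or astrocytes was found. The 5 fibroblast markers summed to 720 and 11.9 CPM in uninjured nerve libraries 2 and 4. In injured nerve libraries 1 and 3 they summed to 161 and 38.6 CPM, and in retina to 0. The 5 astrocyte markers summed to 866 and 1337 CPM in uninjured and 508 and 190 CPM in injured nerve. The part of such cells in the C4b of any class was not tested.

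Between uninjured tissues C4b was higher in optic nerve by 5.66 ± 1.002 on the log2 scale (limma adjusted p = 0.0177), and it was the 1 member called higher there. The call was lost without T-, oligodendrocyte- and endothelial-like cells (5.27, limma adjusted p = 0.0960). Without border macrophage-like cells as well, uninjured nerve libraries 2 and 4 stood at 0 and 24.3 CPM against 14.5 and 17.6 CPM in retina, and the difference turned to -1.23 (limma adjusted p = 0.573). It was also lost without uninjured nerve library 2 (5.29, limma adjusted p = 0.0715) and without library 4 (6.04, limma adjusted p = 0.0969). After crush the log2 change was 3.24 ± 1.11 in retina (edgeR adjusted p = 0.0593) and -1.92 ± 1.002 in nerve (limma adjusted p = 0.615). The ratio of summed UMIs in retina was 6.37, with a counting interval of 2.14 to 31.2 that rests on 165 UMIs against 3. In retina C4b passed in 5 of 9 alternatives, among them without T-, oligodendrocyte- and endothelial-like cells (3.46, edgeR adjusted p = 0.0428), without uninjured library 6 (3.29, edgeR adjusted p = 0.0028) and without injured pool 1 and 2 (4.16, edgeR adjusted p = 1.2e-08).

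**Figure D3:**
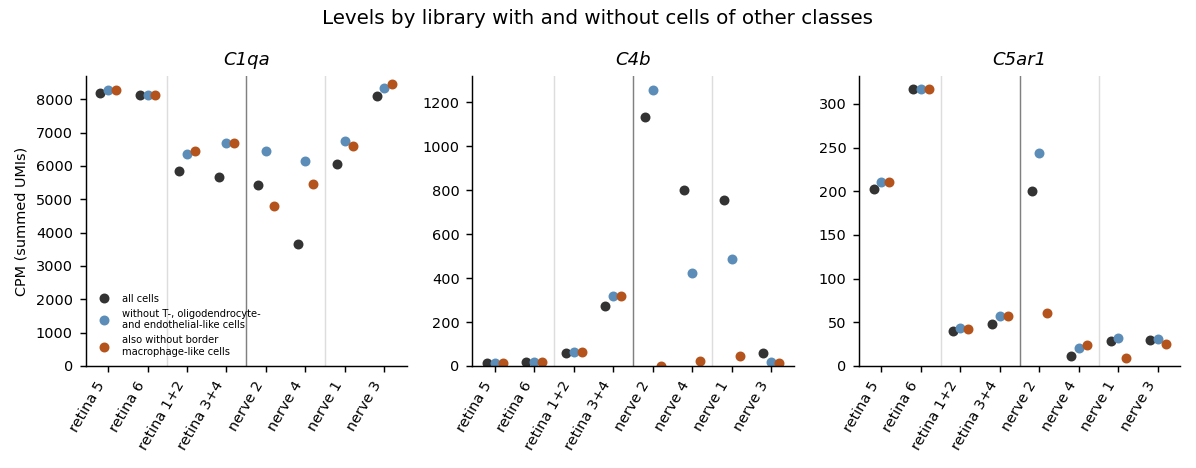
CPM of C1qa, C4b and C5ar1 in each library from all cells (black), without T-, oligodendrocyte- and endothelial-like cells (blue) and also without border macrophage-like cells (orange), with vertical lines between groups. C4b in uninjured nerve library 2 goes from 1134 to 1257 and then to 0 CPM, and C5ar1 there from 199.99 to 244 and 61.2 CPM.

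C3, the central component of all complement pathways, was scarce. C3 (ENSMUSG00000024164) is a minus-strand gene on chromosome 17 from 57203970 to 57228136 and overlaps the microRNA gene Mir6978. Only 137 UMIs in 92 cells were counted. Uninjured retina had none, which allows up to 21.0 CPM in library 5 and 52.8 CPM in library 6 at 3 counts. Injured retina had 21.9 and 45.2 CPM from 31 and 14 UMIs. Uninjured nerve had 8.57 and 11.9 CPM from 3 and 1 UMIs, and injured nerve had 31.5 and 14.98 CPM from 10 and 78 UMIs. Injured libraries lay above uninjured ones in both tissues, with values this low.

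C3 was below the count filter in every comparison and has no value in the fits. Over summed UMIs it was 1.74-fold higher in injured than uninjured retina, taking 3 UMIs over the uninjured group as the floor. This leaves out the counting error of the injured UMIs. By library the uninjured limits of 21.0 and 52.8 CPM were not below the counting interval of injured pool 1 and 2 (14.9 to 31.1 CPM). The ratio in optic nerve was 1.73, with a counting interval of 0.651 to 6.48. With no filter edgeR gave an adjusted p of 0.0302 in retina. By class the level was 109 CPM in oligodendrocyte-like cells, from 20 UMIs in 8 of 83 cells, and 26.1, 24.1, 22.7 and 10.4 CPM in cluster 1, border macrophage-like cells, cluster 2 and activated phagocyte-like cells. Microglia-like and T-like cells had 0, which allows up to 11.7 and 18.6 CPM at 3 counts. No astrocyte class was found, although astrocytes are a known source of C3. The 5 astrocyte markers were all present in every nerve library, summing to 189.87 to 1337 CPM. In retina 1 of the 5 had UMIs, summing to 14.0 and 17.6 CPM in uninjured and 165 and 245 CPM in injured libraries, and Gfap, Aqp4, Aldh1l1 and Gja1 were at 0.

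The receptor genes were highest in myeloid classes. C3ar1 (ENSMUSG00000040552, chromosome 6, 122847138 to 122856161, minus strand), the receptor for C3a, had 1674 UMIs and was present in all myeloid classes. Over pooled cells the levels were 230 CPM in microglia-like cells, 221 CPM in border macrophage-like cells, 234 CPM in cluster 1, 230 CPM in cluster 2 and 221 CPM in activated phagocyte-like cells, with overlapping Poisson intervals. Within a library they differed more. In uninjured nerve library 2 microglia-like cells had 21.3 CPM from 1 UMI (0.54 to 119 CPM) and border macrophage-like cells 213 CPM (154 to 287 CPM). Microglia-like cells of uninjured nerve library 4 had 153 CPM from 4 UMIs (41.6 to 391 CPM). Those of uninjured retina had 281 and 317 CPM (196 to 391 and 188 to 501 CPM), which overlaps nerve library 4. T-like and endothelial-like cells had 0 UMIs, and oligodendrocyte-like cells 1 UMI (5.47 CPM). C3ar1 in oligodendrocyte-like cells was thus near 0 where C1q was at 2977 CPM.

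By library C3ar1 stood at 273 and 317 CPM in uninjured and 223 and 155 CPM in injured retina, and at 137 and 71.6 CPM in uninjured and 240 and 216 CPM in injured nerve. As with C1q, injured libraries lay below uninjured ones in retina and above them in nerve. In uninjured mice it was lower in nerve than in retina, at -1.62 ± 0.39 on the log2 scale (limma adjusted p = 0.0463). Only 3 of 16 alternatives kept that call, and edgeR on UMIs gave -1.43 with an adjusted p of 0.108. After crush the log2 changes were -0.58 ± 0.30 in retina (edgeR adjusted p = 0.193) and 1.38 ± 0.39 in nerve (limma adjusted p = 0.349). Their difference was 1.97 ± 0.56 (limma adjusted p = 0.142).

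C5ar1, the receptor for the inflammatory fragment C5a, had the largest fall of the 8 members tested in injured retina. C5ar1 (ENSMUSG00000049130) is a minus-strand gene on chromosome 7 from 16246743 to 16259540. Uninjured retina held 203 and 317 CPM, from 29 and 18 UMIs, and injured retina 39.6 and 48.4 CPM, from 56 and 15 UMIs. The groups lay far apart, and the log2 change was -2.52 ± 0.37 (edgeR adjusted p = 0.0011). The 6 monocyte markers summed to 7.003 CPM in library 5 and 0 in library 6 of uninjured retina and to 474 and 381 CPM in the injured pools. Chil3 was at 0 in all 4 libraries. In pool 1 and 2, 5 of the 6 had a UMI, and in pool 3 and 4 only 3 did, with Plac8 and Vcan also at 0. The part of these markers in the fall was not tested. The fall was called in 9 of 10 alternatives and was lost in limma over all 8 libraries (-2.40, adjusted p = 0.174). Without T-, oligodendrocyte- and endothelial-like cells it was -2.34 (edgeR adjusted p = 0.00098), and the means were 263 ± 75.4 CPM and 50.1 ± 9.97 CPM (SD, n = 2).

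In optic nerve C5ar1 had 199.99 and 11.9 CPM in uninjured libraries 2 and 4, and 28.4 and 29.95 CPM in injured libraries 1 and 3. The uninjured libraries stood on either side of the injured ones. Library 2 held 70 C5ar1 UMIs, of which 64 were in its 43 border macrophage-like cells, and library 4, with 1 such cell, held 1. The 6 neutrophil markers summed to 843 CPM in library 2, where 5 had a UMI, and to 119 CPM in library 4, where 1 did. In injured libraries 1 and 3 they summed to 170 and 127 CPM, from 1 and 4 markers. No neutrophil class was found, and the part of such cells in the C5ar1 values was not tested. The log2 change in nerve was -0.58 ± 1.002 (limma adjusted p = 0.928) and turned to 1.53 without library 2. Between uninjured tissues it was -2.32 ± 1.003 (limma adjusted p = 0.193), and without library 2 it was -4.33 and passed (limma adjusted p = 0.0257). By class C5ar1 stood at 228 CPM in border macrophage-like and 195 CPM in microglia-like cells, and at 45.05, 28.9 and 24.2 CPM in cluster 1, cluster 2 and activated phagocyte-like cells. Microglia-like cells of uninjured retina had 233 and 317 CPM, and those of uninjured nerve 42.6 and 38.2 CPM from 2 and 1 UMIs.

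**Figure D4:**
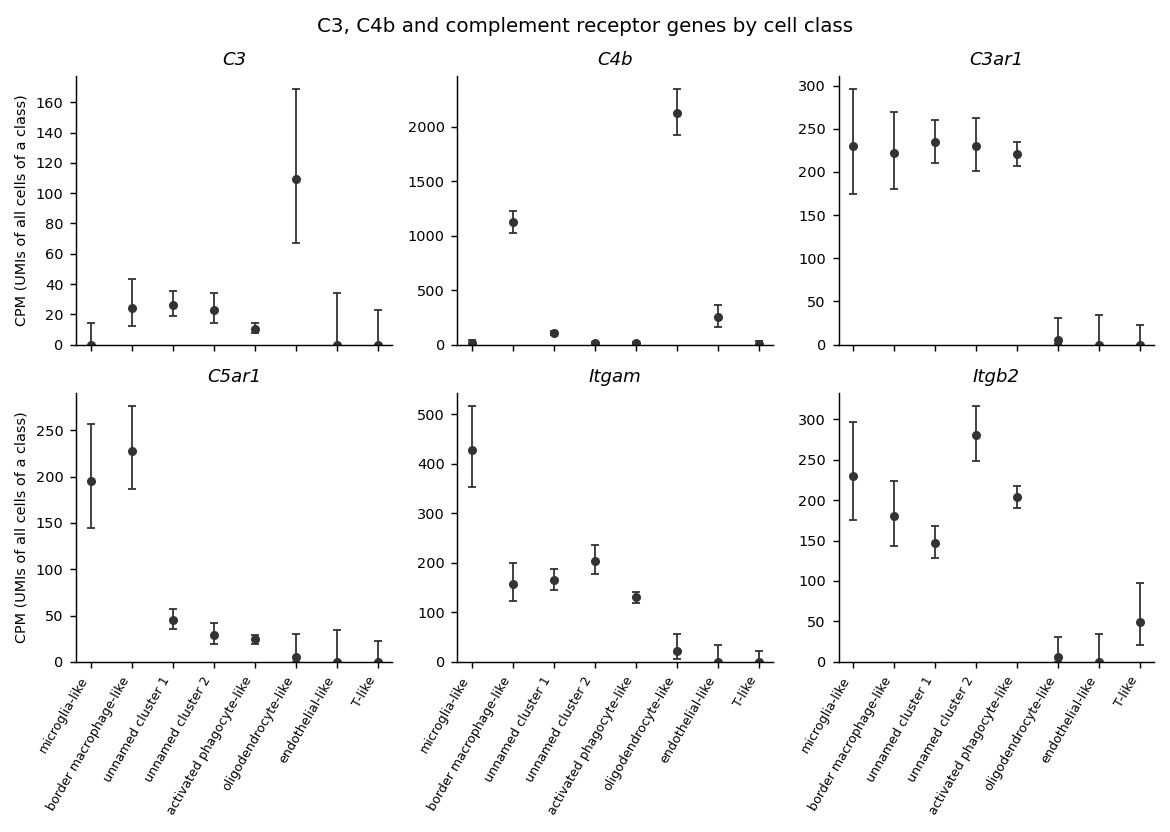
CPM of C3, C4b, C3ar1, C5ar1, Itgam and Itgb2 over all cells of a class with exact Poisson 95% intervals (vertical axes start at 0 and differ between panels). C4b and C3 are highest in oligodendrocyte-like cells (2129 and 109 CPM), and the receptor genes in myeloid classes.

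Itgam and Itgb2 encode the chains of CR3. Itgam (ENSMUSG00000030786), which encodes the CD11b chain that defines many microglial sorts, lies on the plus strand of chromosome 7 at 128062640 to 128118491 and overlaps the gene model Gm49368. Uninjured retina held 434 and 545 CPM of it and injured retina 153 and 174 CPM. In optic nerve it stood at 109 and 119 CPM in uninjured and 114 and 142 CPM in injured libraries. Uninjured retina alone was high, and the 6 other libraries lay within 109 to 174 CPM. The log2 change in retina was -1.55 ± 0.26 (edgeR adjusted p = 0.0023), and it was called in all 10 alternatives run, at -1.55 to -1.34. Between uninjured tissues Itgam was lower in nerve, at -2.15 ± 0.30 (limma adjusted p = 0.0080), called in 14 of 16 alternatives and lost without uninjured nerve library 4 (-2.10, limma adjusted p = 0.0760) and without border macrophage-like cells in addition to the other 3 classes (-1.48, limma adjusted p = 0.0804).

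Within the microglia-like class the same order was seen, at 490 and 545 CPM in uninjured retina against 234 and 267 CPM in uninjured nerve, from 11 and 7 UMIs in nerve. Itgam was at 429 CPM in all microglia-like cells and at 130 to 204 CPM in the other myeloid classes. In nerve the log2 change after crush was 0.36 ± 0.30 (limma adjusted p = 0.788). The difference between the 2 responses was 1.85 ± 0.42, the smallest adjusted p of any member in that comparison (limma adjusted p = 0.0876), and did not pass. The 10 microglia markers moved alongside in retina, summing to 12704 and 15905 CPM in uninjured and 5910 and 5584 CPM in injured libraries. The monocyte markers given with C5ar1 had a higher sum in the injured pools, from 5 of the 6 in pool 1 and 2 and 3 of the 6 in pool 3 and 4. The part of either list in the fall of Itgam was not tested.

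Itgb2 (ENSMUSG00000000290, chromosome 10, 77530252 to 77565708, plus strand), the CD18 chain that other leukocyte integrins share, varied less. It had 168 and 334 CPM in uninjured and 142 and 132 CPM in injured retina, and 177 and 95.5 CPM in uninjured and 136 and 213 CPM in injured nerve. The nerve groups overlapped. The log2 change in retina was -0.72 ± 0.33 (edgeR adjusted p = 0.141) and in nerve 0.59 ± 0.45 (limma adjusted p = 0.759). It was the 1 receptor gene with UMIs in T-like cells, at 8 UMIs (49.6 CPM) in 7 of 47 cells, whereas Itgam was at 0 there.

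Shares of cells with a receptor UMI depended on depth. In injured retina pool 1 and 2, the deepest library, 60.6% of cells had an Itgam UMI, and 11.4% after thinning to 1000 UMIs. In uninjured retina the thinned shares were 29.98% and 41.9% for Itgam and 17.2% and 25.1% for C5ar1. In the injured pools they were 11.4% and 8.61% for Itgam and 3.02% and 3.05% for C5ar1. Thinned shares thus kept the order of the retina groups for both genes. Between the injured pools the order for Itgam differed from that of the CPM (153 and 174 CPM). These shares cover all cells of a library. T-like cells, with 0 UMIs of both genes, were 20.2% and 42.1% of the injured pools and 0% of uninjured retina. Their part in the order of the shares was not tested.

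**Figure D5:**
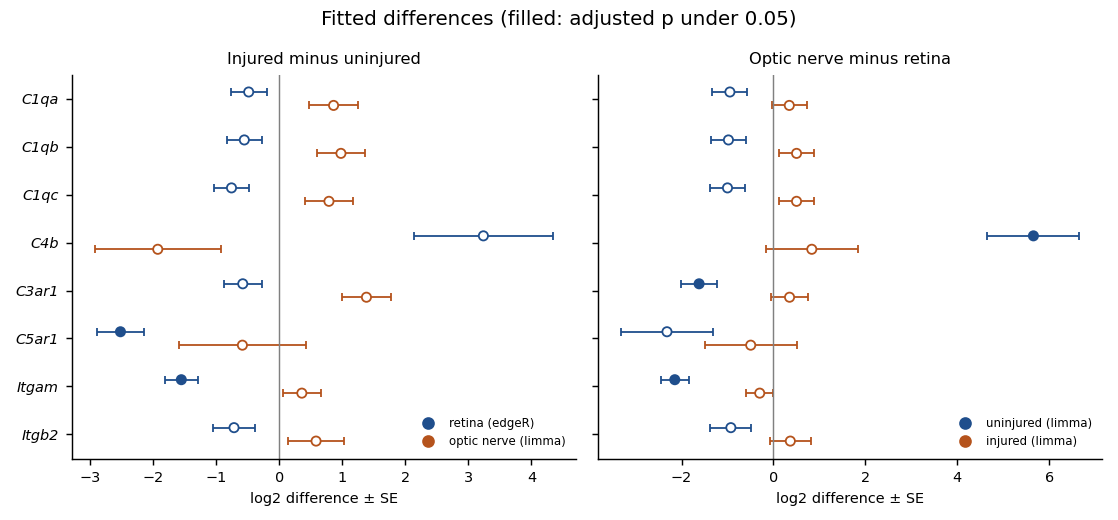
Fitted log2 differences (horizontal axes) with standard errors for the 8 members tested. Left, injured minus uninjured in retina (edgeR, blue) and optic nerve (limma, orange), and right, optic nerve minus retina in uninjured (blue) and injured (orange) tissue, where filled points have an adjusted p under 0.05. C5ar1 and Itgam are filled on the left, and C4b, C3ar1 and Itgam on the right.

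Of the 8 members tested in retina, C5ar1 and Itgam fell and none rose. Among all 3312 genes tested there 19.7% were called, and 9.72% were called lower. The median log2 change of the members was -0.65, beside 0.07 for all genes tested. In optic nerve none of 8 members was called by limma, where 3 had an unadjusted p under 0.05, edgeR and DESeq2 on the UMIs also called 0, and 0.0726% of 5508 genes were called. There the members' median was 0.69, beside 0.02 for all genes. No member was called in the interaction of injury with tissue (6 with an unadjusted p under 0.05, and 0 called by edgeR and DESeq2), where 0.926% of genes were. Itgam, C3ar1 and C4b were the members with the smallest p-values in that comparison.

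Between uninjured tissues C4b was higher in nerve and C3ar1 and Itgam were lower, beside 5.90% of all genes called, 3.92% higher and 1.98% lower. Between injured tissues no member was called (0 with an unadjusted p under 0.05, and 0 by edgeR and DESeq2), beside 0.763% of genes. There the largest difference was 0.83 ± 1.002 for C4b (limma adjusted p = 0.805). The uninjured retina libraries enter the retina, interaction and uninjured comparisons alike, so these share the same high Itgam and C3ar1 values. By CPM alone, injured and uninjured libraries did not overlap for 9 of 9 members in retina, 7 lower and 2 higher, and for 6 of 9 in nerve, 5 higher and 1 lower. Of 11904 genes with a UMI in both tissues, 46.5% did not overlap in retina and 35.9% in nerve.

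Genes most alike to a member over the 8 libraries were taken by the smallest root mean square difference of centred log2 CPM among 5500 others. For Itgam the first was Cx3cr1, the fractalkine receptor of microglia, at 0.144, then Clip1 at 0.208 and Ubb at 0.224, where the median gene was at 1.0955. For C1qa they were the kinase gene Csk at 0.149, the acid ceramidase gene Asah1 at 0.160 and the autophagy gene Map1lc3b at 0.167. For C3ar1 they were Zfp467, Wdr83os and Chic2 at 0.237 to 0.268. C4b and C5ar1 had no gene as close. For C4b they were Slain1, the growth factor receptor gene Fgfr2 and Lrp1b at 0.642 to 0.713, and for C5ar1 they were Susd3, Prkab1 and Siah1a at 0.660 to 0.724. C3 was not in the fit.

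Of 50 other complement genes 31 had a UMI and 19 had none, and Cfd, Hc, C6, C7, C8a, C8b and C9, which encode factor D and terminal components, were among those at 0. In retina 6 of the 50 were tested and 1 was called. Colec12, a scavenger receptor with a collectin domain, had 0 UMIs in uninjured and 146 in injured retina (edgeR adjusted p = 0.0064). With 3 UMIs as the floor of the uninjured group it was 5.63-fold higher, which leaves out the counting error of the 146 UMIs. Of 9 tested in the other comparisons, 2 were higher in uninjured nerve than uninjured retina. Colec12 had 239.99 and 47.7 CPM in uninjured nerve and 0 in uninjured retina (limma adjusted p = 0.0062). Without border macrophage-like cells and the other 3 classes it had 12.2 and 24.3 CPM there, and the 0 of uninjured retina allows up to 21.0 and 52.8 CPM. Clu, which encodes clusterin, an inhibitor of the terminal complex, had 254 and 227 CPM in uninjured nerve and 0 in uninjured retina (limma adjusted p = 0.0090). Of its 207 UMIs 58.0% were in oligodendrocyte-like cells, and without the T-, oligodendrocyte- and endothelial-like classes uninjured nerve had 84.7 and 0 CPM.

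Further genes were chosen after their values were seen. C5ar2, the second C5a receptor, had 12 UMIs, 10 in library 5 and 2 in library 6 of uninjured retina, and 0 in every other library. With 3 UMIs as its floor injured retina was 34.5-fold lower, which leaves out the counting error of the 12 UMIs. Uninjured retina is the group whose annotation or merging differed. Whether C5ar2, Itgax and Colec12 were countable alike in every group was not tested. Itgax, which encodes the CD11c chain of the CR4 receptor, had 0 UMIs in uninjured and 86 in injured retina, and 2 in uninjured and 1008 in injured nerve. Its log2 change in nerve was 5.40 ± 0.83 and did not pass (limma adjusted p = 0.0734). Fcna, a ficolin gene of the lectin pathway, had 201 UMIs, of which 188 were in border macrophage-like cells. Vsig4, a receptor of tissue macrophages for C3 fragments, had 49 of its 55 UMIs in the same class.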

How the data were processed

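The 8 libraries were read from 1 deposited table in 2 units. For 209 retina cells the authors deposited raw UMI counts, and for 959 optic nerve cells the deposited values were the natural log (ln) of 1 plus 10000 times the UMI share of a cell, as the values show. Counts were recovered for the nerve cells, since all 1374534 of their nonzero values came within 0.01 of a whole UMI. Per the submitters' processing notes, Cell Ranger 1.3, bcl2fastq 2.17.1.14, Seurat 4.0.3 and the mm10 genome were used. Per the design text, cells had 200 to 6500 genes and batches were integrated with harmony. The stated 1168 cells equalled those in the table, with 205 to 6231 genes each, and 2 barcodes each occurred in 2 cells, both between injured nerve libraries 1 and 3. No doublet caller was run.

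UMIs were summed per library. Retina injury was tested with edgeR 4.0.16 quasi-likelihood (TMM, filterByExpr, 4 libraries, the 27998 shared entries). The standard error is the log2 change divided by the square root of F. The other comparisons used limma 3.58.1 (trend) on log2 CPM with a prior count of 2 over 8 libraries, for genes with UMIs in both tissues. That prior count shrinks differences of low genes, but it can set a 0 of a small library below its limit of 3 counts. A fitted difference against such a 0 can therefore exceed the one at that limit. Between uninjured tissues Clu had a fitted log2 difference of 6.66 and was 16.6-fold higher at the limit. For Colec12 these were 5.53 and 13.5-fold. The threshold was an adjusted p (Benjamini-Hochberg, over all genes tested) of 0.05. DESeq2 1.42.0, other scalings, filters, cell sets and each library left out were alternatives. Both tests were run on simulated counts that gave all genes a common spread and, apart from set changes, the same gene shares in every library. These libraries differ in cell mix, so that run does not show how the tests perform on them.

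Leiden clustering (resolution 0.5, scanpy 1.11.5) used 15 neighbours on 30 components of 2000 variable genes and left out 59 complement genes. A cluster was named when at least 3 markers of a list were among its 50 leading genes and no other list had more. This rule was set after a first clustering, in which a rule that also asked for 2 markers among the 10 leading genes left the T-like cluster unnamed. A cell holding 5 or more of the 14 endothelial markers was taken as endothelial-like. The lists for astrocytes, photoreceptors, Muller glia, monocytes, neutrophils, dendritic cells, B cells and fibroblasts named no cluster. Intervals are exact 95% Poisson or Clopper-Pearson, and a count of 0 was given a limit of 3 counts. All 9 members were named in every comparison, and other complement genes where they were called. Gene positions come from GENCODE M21 (GRCm38). Besides AGGAAGT, the strings GAGGAAGT (2.44% of promoters), GAGGAA (23.3%), GGAAGT (19.7%), AGGAAG (29.5%), TATAAA (12.4%), CCAAT (33.8%), GGGCGG (32.7%) and TGANTCA (6.75%) were searched on both strands, and several overlap each other. The members and lists were chosen with earlier results of these data known.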

Additional observations from a re-analysis of the deposited data

Results flagged for a closer look

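For C1qa, C1qb, C1qc, C3ar1 and C4b every injured library lay on one side of the uninjured ones in retina and on the other side in optic nerve, taking all cells. Counting intervals of injured and uninjured libraries overlapped for C1qc and C4b in nerve and for C3ar1 and C4b in retina. Without T-, oligodendrocyte- and endothelial-like cells the nerve libraries overlapped for C1qc (4278 and 4417.5 CPM uninjured, 4099.7 and 5923 CPM injured) and for C4b (1257 and 422 CPM uninjured, 489 and 17.2 CPM injured). The 422 CPM of C4b became 24.3 CPM when 1 border macrophage-like cell was left out as well. This pattern of opposite directions was itself not tested, and the limma interaction of injury and tissue, which tests the difference of the 2 responses, did not pass for any of them. It was 1.29 ± 0.54 for C1qa (limma adjusted p = 0.277), 1.48 ± 0.54 for C1qb (limma adjusted p = 0.231) and 1.503 ± 0.53 for C1qc (limma adjusted p = 0.215). It was 1.97 ± 0.56 for C3ar1 (limma adjusted p = 0.142) and -4.82 ± 1.42 for C4b (limma adjusted p = 0.152), all on the log2 scale and positive where the response in nerve was higher. Without injured nerve library 1 the value for C4b was -6.48 and passed (limma adjusted p = 0.0478). For C1qa, C1qb and C1qc it was 2.48, 2.61 and 2.49 on the scale of mean ln values per library, where limma called them, and depth per cell differed between the libraries.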

How the results depend on the processing

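The number of members called in retina was 2, and it was 4 with the DESeq2 Wald test, 1 with limma over all 8 libraries and 2 to 6 with each library left out. In optic nerve 0 were called, against 2 on mean ln values, and 0 with each library left out. The interaction had 0, against 4 on mean ln values and 0 to 1 with each library left out. Between uninjured tissues 3 were called, against 7 on mean ln values, 1 without T-, oligodendrocyte- and endothelial-like cells, 0 without border macrophage-like cells as well (the 3 and 4 classes below) and 0 to 3 with each library left out (0 without uninjured nerve library 4). Between injured tissues 0 were called, against 3 on mean ln values and 0 with each library left out. Mean ln values move with depth per cell, and the cause of these differences was not tested. All genes called in retina numbered 653, against 341 with DESeq2, 341 with limma and 415 to 699 with each library left out. In optic nerve they numbered 4, against 53 with edgeR, 71 with DESeq2, 30 on mean ln values, 10 without TMM, 9 without the 4 classes, 0 with a prior count of 0.5 and 0 to 8 with each library left out. In the interaction they numbered 51, against 112 with DESeq2, 297 on mean ln values, 86 without TMM, 11 without a filter, 6 without the 3 classes and 0 to 702 with each library left out. Between uninjured tissues they numbered 325, against 120 with edgeR, 152 with DESeq2, 531 on mean ln values, 202 without a filter, 69 without the 3 classes, 49 without the 4 and 8 to 1344 with each library left out. Between injured tissues they numbered 42, against 383 with edgeR, 272 with DESeq2, 713 on mean ln values, 25 without the 3 classes, 24 without the 4 and 0 to 67 with each library left out.

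Direction turned in 15 member results. On mean ln values Itgam in nerve turned to -0.13, and C3ar1 and Itgb2 between injured tissues to -0.085 and -0.12. Without T-, oligodendrocyte- and endothelial-like cells Itgam in nerve turned to -0.060 and C4b between injured tissues to -0.53. Without border macrophage-like cells as well, C4b stood at 2.06 in nerve, -1.23 between uninjured and -2.22 between injured tissues, and Itgam at -0.29 in nerve. With 1 library left out, C5ar1 ranged from -2.55 to 1.53 in nerve and from -0.20 to 3.86 in the interaction. Between injured tissues C4b then ranged from -0.81 to 2.55, Itgam from -0.49 to 0.016 and Itgb2 from -0.00068 to 0.85. The lone library of a group is then assumed to vary like the others. No member called in the main tests changed direction in retina. Of 72 shares of cells with a UMI, 33 left their counting interval after thinning. No paired analysis was possible because the injured retina samples 1 to 4 are held as 2 pools, so that numbers shared with optic nerve libraries could not be matched.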
